A study of Mus musculus with 6 samples.

Results

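The type I interferon response genes described here are 44 listed genes, namely interferon-stimulated genes, the 2 receptor chains and their closest signalling partners, taken by symbol from the 43432 genes of the deposited count table. They were followed in bulk RNA of splenic CD11b+ cells, sorted from 6 C57BL/6J mice with the Rag1-KO genotype on day 8 after transfer, 3 mice in each group. All 6 mice lacked their own mature T and B cells, and all were given 2D2 CD4+ T cells, which carry a transgenic receptor for myelin oligodendrocyte glycoprotein (MOG), along with MOG-loaded B cells grown in the iGB culture. In the WT iGB6 group the B cells were wild type and had been transduced with a retroviral vector that drives Il6 and eGFP. In the IgHMOG iGBGFP group they came from IgHMOG mice, whose heavy chain recognises MOG, and held the empty vector. The B cell genotype and the vector differed at the same time, so their effects cannot be told apart. In each group replicate 1 was female and replicates 2 and 3 were male, so sex cannot be told apart from replicate 1. The labels used here state no age.

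Type I interferons bind a receptor built from the chains IFNAR1 and IFNAR2. The receptor activates the kinases JAK1 and TYK2, which phosphorylate STAT proteins, STAT2 among them, and a complex of STAT proteins with IRF9 binds the interferon-stimulated response element near target genes. Many targets encode antiviral effectors that block entry, translation, replication or release of a virus, while others are sensors that detect foreign or misplaced nucleic acid. Myeloid cells of the spleen both make and respond to these interferons.

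Every library held between 5196339 and 7564254 reads, with 14816 to 17013 genes detected. Itgam, which encodes CD11b, stood at 6451 to 12352 normalized counts over the 6 libraries, and the neutrophil markers summed to 11.6 to 26.5% of all normalized counts. A normalized count here is a read count that the authors divided by a size factor for that library. All 44 members had at least 1 read in every library and all passed the expression filter, a mean of 10 normalized counts, so none was left out. Levels of different genes were compared per kilobase of exon. Ifitm3, a membrane protein that blocks viral entry, led with a mean of 13227 normalized counts per kb over the 6 libraries. Its relative Ifitm2 followed at 9736 per kb, then Ifi27l2a at 2990, Ifitm1 at 2026 and Rtp4 at 1215. The lowest levels per kb were those of Ifi44 (2.34), Mx2 (6.50), Phf11d (14.7) and Mx1 (19.8). Summed, the members took 0.845 to 1.18% of a library's normalized counts in IgHMOG iGBGFP and 0.642 to 0.668% in WT iGB6, without overlap, and Ifitm3 alone made up 17.2% of that sum over all libraries.

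Some type I interferon response genes were lower in CD11b+ cells of WT iGB6 mice, and none of the 44 members rose. By limma with sex as a term and Benjamini-Hochberg adjustment over all 9923 tested genes, 8 members fell, namely Ifi27l2a, Ifit3, Ifi204, Mx1, Ifit3b, Oasl1, Phf11d and Trim30a, and 36 did not pass the threshold of 0.05. These are 18.2% of the members, where 3.37% of all tested genes fell, 2.75% rose and 6.12% changed in either direction. The median log2 difference (WT iGB6 minus IgHMOG iGBGFP) was -0.43 over the members and 0.02 over all tested genes. Of the members, 33 were fitted below 0 and 11 above 0. In 15 members every WT iGB6 library lay below every IgHMOG iGBGFP library, against 11.4% of all tested genes, and in 0 members did every WT iGB6 library lie above, against 12.2%. An unadjusted limma p under 0.05 was reached by 19 members, all of them lower. The share of all tested genes at that threshold was not counted, so this number cannot be set against the whole table. By edgeR and DESeq2 on the recovered reads 0 members were called higher as well. On GRCm38 the 8 lower members, all protein-coding, lie at chr12:103442167-103443680 (Ifi27l2a), chr19:34583531-34588731 (Ifit3), chr1:173747293-173766943 (Ifi204), chr16:97447035-97462907 (Mx1), chr19:34607970-34613401 (Ifit3b), chr5:114923240-114937915 (Oasl1), chr14:59347407-59365470 (Phf11d) and chr7:104409025-104465193 (Trim30a). In bulk RNA a smaller number of cells of some type and less RNA per cell cannot be told apart.

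**Figure D1:**
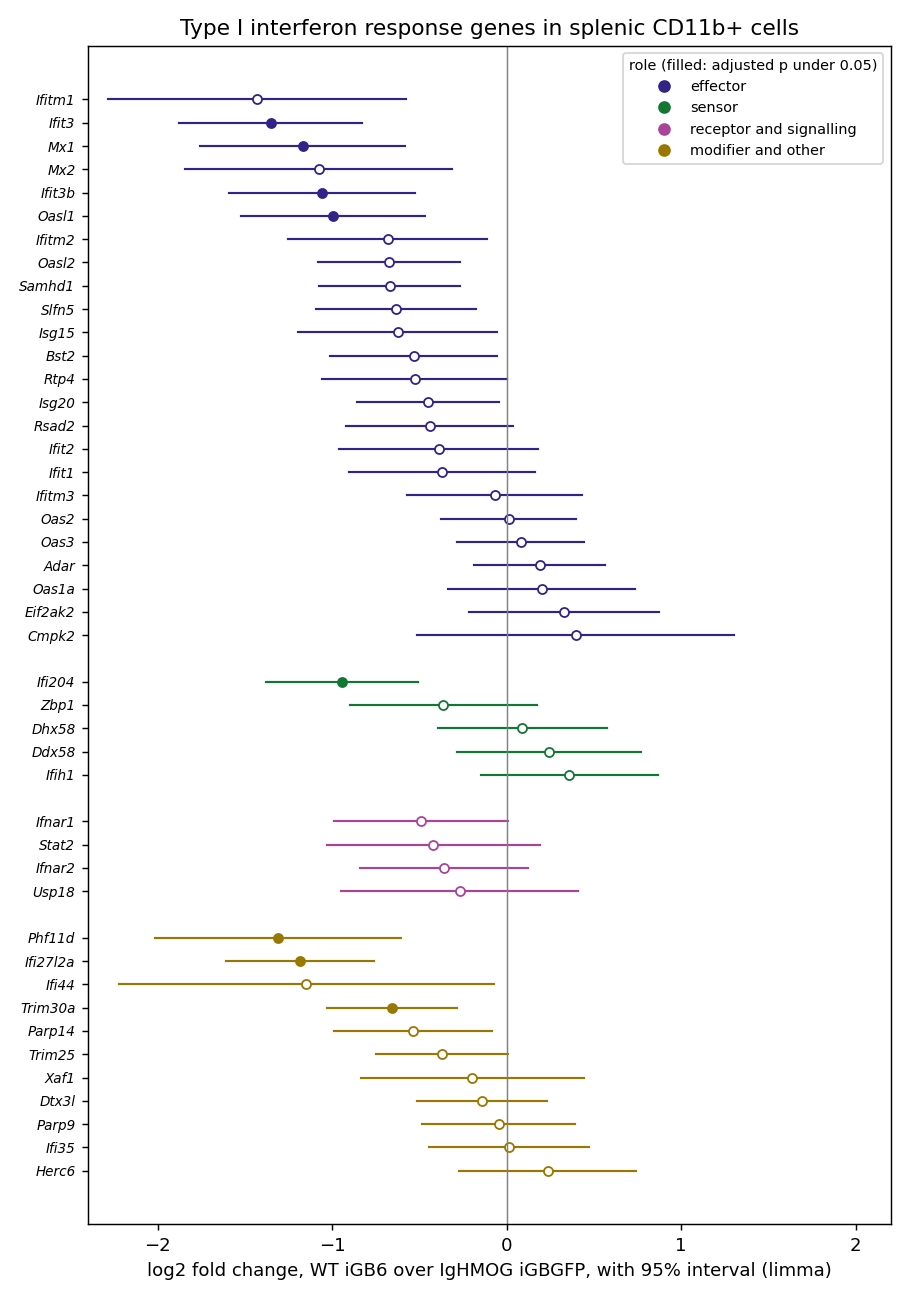
Log2 fold change of each of the 44 members (rows, grouped by role), WT iGB6 over IgHMOG iGBGFP, with its 95% interval from limma on the horizontal axis and filled points for members past the test. The 8 filled points all lie left of 0, between -1.35 (Ifit3) and -0.66 (Trim30a).

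The 8 calls depended on the model and on single libraries. Without the sex term limma called 0 members and 10 genes in all. The count was also 0 without IgHMOG iGBGFP replicate 2 and 0 without IgHMOG iGBGFP replicate 3, and it was 2 without replicate 1 of either group and 9 without WT iGB6 replicate 2 or replicate 3. The count of lower genes over the whole table moved as well, from 334 to 1 and 14 without IgHMOG iGBGFP replicates 2 and 3, to 62 and 72 without replicate 1 of IgHMOG iGBGFP and WT iGB6, and to 673 and 307 without WT iGB6 replicates 2 and 3. The edgeR quasi-likelihood test on the recovered reads called the same 8 members (3.55% of all tested genes fell by it), DESeq2 called 11 (5.33%), and the authors' deposited table holds 10 of the 44 as lower at an adjusted p under 0.05 (4.29% of its genes). DESeq2 and the authors' deposited table both had Samhd1 and Oasl2 beyond the 8, and DESeq2 also had Ifitm1. Under CPM 10 members fell, and 80.9% of all calls were lower against 55.0% in limma as reported.

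Among the 24 effectors, 4 fell (Ifit3, Ifit3b, Mx1 and Oasl1), 0 rose and 20 did not pass, with a median log2 difference of -0.53. The IFIT proteins bind foreign RNA and hold back its translation. Ifit3 stood at 1203, 1038 and 973 normalized counts in IgHMOG iGBGFP replicates 1, 2 and 3 and at 807, 282 and 318 in WT iGB6 replicates 1, 2 and 3. Every WT iGB6 library was below every IgHMOG iGBGFP library, with the female WT iGB6 mouse far nearer to the IgHMOG iGBGFP range than the 2 males. The means were 1071 ± 119 and 469 ± 294 (± SD over 3 mice in each group), a log2 fold change of -1.35 (SE 0.24, limma adjusted p = 0.0167). Ifit3b, a close copy of Ifit3, had 651, 555 and 485 normalized counts in IgHMOG iGBGFP and 534, 186 and 193 in WT iGB6. Here the groups overlapped, because the female WT iGB6 mouse lay within the IgHMOG iGBGFP range (log2 fold change -1.06, SE 0.24, limma adjusted p = 0.0339). Of all 50-base stretches in the Ifit3 transcripts, 51.2% also occur in Ifit3b, so the split of reads between these copies is uncertain.

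The other IFIT members did not pass the test. Ifit1 stood at 1445, 1304 and 1011 normalized counts in IgHMOG iGBGFP and at 1501, 583 and 1008 in WT iGB6 (log2 fold change -0.37, 95% interval -0.90 to 0.16). Its highest and its lowest library were both from WT iGB6. Ifit2 had a log2 fold change of -0.39 with an interval of -0.96 to 0.18.

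The promoters of these neighbours on chromosome 19 are shown for Ifit3 and Ifit3b, which fell, and for Ifit1, which did not pass. All 3 hold copies of the response element core. The limma intervals of Ifit1 (-0.90 to 0.16) and Ifit3b (-1.59 to -0.53) overlap, and a difference between these genes was not tested. The 200 bases before each RefSeq transcription start on GRCm38.p6 are Ifit3, chr19:34583329-34583528 (plus strand), Ifit3b, chr19:34607757-34607956 (plus strand), and Ifit1, chr19:34640689-34640888 (plus strand). Each is written 5′ to 3′ on the gene's strand, with every match to the core (GAAA, any 2 bases, GAAA), read here as its reverse complement, in capitals.
Ifit3: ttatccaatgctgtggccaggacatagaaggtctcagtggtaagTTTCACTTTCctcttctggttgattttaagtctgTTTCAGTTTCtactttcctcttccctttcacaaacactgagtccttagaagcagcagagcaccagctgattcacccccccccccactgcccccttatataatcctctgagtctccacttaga
Ifit3b: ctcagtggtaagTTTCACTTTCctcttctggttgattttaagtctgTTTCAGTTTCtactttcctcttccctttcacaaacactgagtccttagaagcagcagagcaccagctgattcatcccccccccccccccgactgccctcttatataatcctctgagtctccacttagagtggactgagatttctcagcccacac
Ifit1: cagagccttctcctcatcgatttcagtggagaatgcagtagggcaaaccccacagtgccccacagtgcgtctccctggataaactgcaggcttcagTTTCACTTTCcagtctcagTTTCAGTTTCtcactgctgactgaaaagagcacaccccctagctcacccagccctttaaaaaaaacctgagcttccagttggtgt
Shared runs were sought over windows from 250 bases before to 50 after each start, which are longer than the stretches printed. There Ifit3 and Ifit3b share an unbroken run of 169 bases, part of which lies before the printed Ifit3b stretch. Their 2 matches are 34 bases apart from start to start. Ifit1 shares at most 13 bases in a row with either over those longer windows, and its 2 matches are 19 bases apart. All 3 windows also hold the longer form, in which CT follows the second GAAA. Whether the matches, their spacing or the shared run bear on the RNA differences was not tested.

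**Figure D2:**
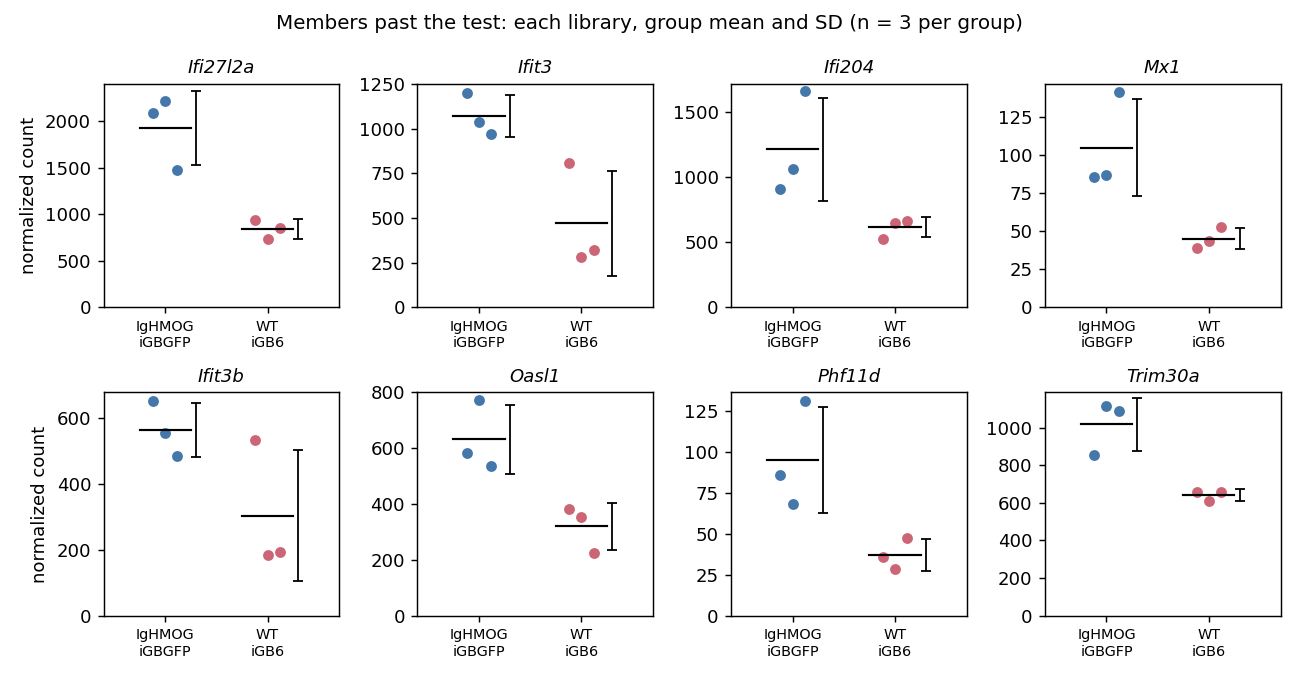
Normalized count in each library (points, replicates 1, 2 and 3 from left to right) with the group mean (line) and SD (bar, n = 3 per group) for the 8 members past the test, each panel starting at 0. In 7 panels the groups do not overlap, and in Ifit3b the female WT iGB6 library (534) lies among the IgHMOG iGBGFP libraries.

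The Mx proteins are large GTPases that trap viral components. Only the RNA of their genes was measured here, and neither Mx protein nor its activity was. Mx1 was at 85.9, 87.1 and 142 normalized counts in IgHMOG iGBGFP and at 39.1, 43.4 and 52.9 in WT iGB6. The groups did not overlap, and the means of 105 ± 32.0 and 45.1 ± 7.03 (± SD over 3 mice in each group) gave a log2 fold change of -1.17 (SE 0.26, limma adjusted p = 0.0339). Mx2, which the annotation lists as a polymorphic pseudogene, was low throughout, at 23.5, 31.9 and 42.0 against 15.4, 13.4 and 14.6. Its libraries did not overlap either, but its log2 fold change of -1.08 did not pass (SE 0.34, limma adjusted p = 0.09).

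The 2′-5′ oligoadenylate synthetases make the messenger that switches on RNase L, and the OAS-like proteins are their relatives. Oasl1 stood at 584, 773 and 538 normalized counts in IgHMOG iGBGFP and at 383, 354 and 224 in WT iGB6. All 3 WT iGB6 libraries were below the IgHMOG iGBGFP range (means 632 ± 124 and 320.1 ± 84.7, SD over 3 mice in each group, with a log2 fold change of -0.998, SE 0.24, limma adjusted p = 0.0397). Oasl2 also had all WT iGB6 libraries below the others without passing, at 3594, 4494 and 3634 against 2816, 2208 and 2314 (log2 fold change -0.68, SE 0.18, limma adjusted p = 0.0569). Oas1a, Oas2 and Oas3 gave another picture. Oas2 stood at 873, 841 and 785 normalized counts against 871, 710.4 and 954, and its log2 fold change of 0.01 (95% interval -0.37 to 0.40) was among the 3 nearest to 0. Oas1a (0.20, interval -0.34 to 0.74) and Oas3 (0.08, interval -0.28 to 0.44) had overlapping groups as well, and under scaling to CPM, that is to the same read total in every library, all 3 were fitted below 0, at -0.0074 for Oas1a, -0.19 for Oas2 and -0.13 for Oas3. Oas1a shares 57.6% of its 50-base stretches with Oas1g, so its count is uncertain.

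The IFITM proteins sit in membranes and stop viral fusion. Ifitm1 had 1306, 5138 and 3346 normalized counts in IgHMOG iGBGFP and 854, 1981 and 675 in WT iGB6. It had the largest fitted difference of the 44 in the main model, -1.43 (SE 0.38), yet its groups overlapped and it missed the threshold (limma adjusted p = 0.0548). The overlap came from the female IgHMOG iGBGFP mouse, which lay below the WT iGB6 replicate 2. Ifitm2 had a log2 fold change of -0.68 (95% interval -1.25 to -0.11, limma adjusted p = 0.137) and shares 48.5% of its 50-base stretches with other genes. Ifitm3 differed by -0.07 (interval -0.57 to 0.43), and by 0.12 without WT iGB6 replicate 2.

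Of the other effectors, Samhd1, which depletes the nucleotide pool, was at 7476, 9657 and 9641 normalized counts against 5212, 6245 and 5295. Those groups did not overlap, and the log2 fold change of -0.67 (SE 0.18) missed the threshold in limma (adjusted p = 0.0554). Isg15, a ubiquitin-like protein attached to other proteins, was at 433, 486 and 342 against 326, 178 and 337 (log2 fold change -0.62, limma adjusted p = 0.169). Its groups did not overlap, but the highest WT iGB6 library came within a few counts of the lowest IgHMOG iGBGFP library. Slfn5 (-0.63), Bst2, the tetherin that holds budding virus (-0.53), Rtp4 (-0.53), the exonuclease Isg20 (-0.45) and Rsad2, which encodes viperin (-0.44), were all fitted below 0 without passing. Cmpk2, a mitochondrial nucleotide kinase (0.40), the translation-blocking kinase Eif2ak2 (0.33) and the RNA editor Adar (0.19) were fitted above 0 without passing, and Adar was at -0.020 under CPM. Cmpk2 rested on single libraries, at -0.12 without WT iGB6 replicate 3 and 0.89 without WT iGB6 replicate 2.

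The promoters of Isg15 and Oas1a are shown as effectors that hold response element matches close to their start and did not pass. They cover Isg15, chr4:156200819-156201018 (minus strand), and Oas1a, chr5:120907526-120907725 (minus strand), from RefSeq on GRCm38.p6, with matches to the same core in capitals, where overlapping matches run together.
Isg15: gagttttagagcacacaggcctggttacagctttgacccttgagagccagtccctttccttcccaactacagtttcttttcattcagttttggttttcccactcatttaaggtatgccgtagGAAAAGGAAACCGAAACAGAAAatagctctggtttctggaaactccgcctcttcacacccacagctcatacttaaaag
Oas1a: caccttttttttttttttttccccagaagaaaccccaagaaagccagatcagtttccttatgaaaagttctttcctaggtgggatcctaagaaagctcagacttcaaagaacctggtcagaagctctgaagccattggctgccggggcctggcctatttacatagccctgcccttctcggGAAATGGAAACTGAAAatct
Isg15 holds 3 overlapping matches, the first starting 78 bases before the transcription start. Oas1a holds 2, starting 20 and 14 bases before it.

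The sensors as a group were centred near 0. Of the 5, only Ifi204 fell, 0 rose, and the median log2 difference was 0.09. Ifi204 is a PYHIN protein that binds DNA and can signal through STING. It stood at 910.4, 1066 and 1662 normalized counts in IgHMOG iGBGFP and at 524, 649.6 and 664 in WT iGB6. The groups did not overlap (log2 fold change -0.94, SE 0.20, limma adjusted p = 0.0278), and 20.0% of its 50-base stretches occur in other genes, most of them in Ifi211.

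The RIG-I-like receptors detect viral RNA in the cytosol. Ddx58, which encodes RIG-I, was at 784, 466 and 566 normalized counts in IgHMOG iGBGFP and 736, 505 and 914 in WT iGB6 (log2 fold change 0.24, 95% interval -0.29 to 0.77, and -0.052 without WT iGB6 replicate 3). Ifih1, which encodes MDA5, was at 580.0, 399 and 639 against 733, 528 and 809 (0.36, interval -0.15 to 0.87). Dhx58, the regulator LGP2, was at 490.0, 343 and 414 against 509, 312 and 529 (0.09, interval -0.39 to 0.57, -0.12 under CPM and -0.13 without WT iGB6 replicate 3). In all 3 the groups overlapped, and in both groups replicate 2 was the lowest library. Zbp1, a sensor of Z-form nucleic acid that can start necroptosis, was at 652, 801 and 851 against 637, 415 and 788. Its log2 fold change was -0.36 (interval -0.90 to 0.17), with overlapping groups.

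Set side by side, effectors were lower relative to the 5 listed sensors in WT iGB6. Of those sensors 3 were RIG-I-like receptors, and the sensor median was the value of 1 gene, Dhx58. The PYHIN sensor Ifi204 (-0.94) fell, as did its relative Aim2 (-0.97), which is not among the 5. The median fitted log2 difference of the effectors minus that of the sensors was -0.62. It was -0.72 when Oas1a, Oas2, Oas3 and Eif2ak2, which themselves bind double-stranded RNA, were counted as sensors. For each library the median of the gene-centred log2 values was then taken within a role. The effector median was 0.28, 0.32 and 0.16 in IgHMOG iGBGFP and 0.04, -0.49 and -0.11 in WT iGB6. The sensor median was 0.11, -0.31 and 0.09 against 0.20, -0.38 and 0.32. The effector medians of the groups did not overlap, while the sensor medians did. Their difference was 0.18, 0.62 and 0.07 in IgHMOG iGBGFP and -0.16, -0.11 and -0.43 in WT iGB6, again without overlap. With 5 sensors against 24 effectors these medians are descriptions and were not tested. The members and their roles were chosen with earlier results of these data known. How often other gene sets of these sizes separate the groups was not counted.

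**Figure D3:**
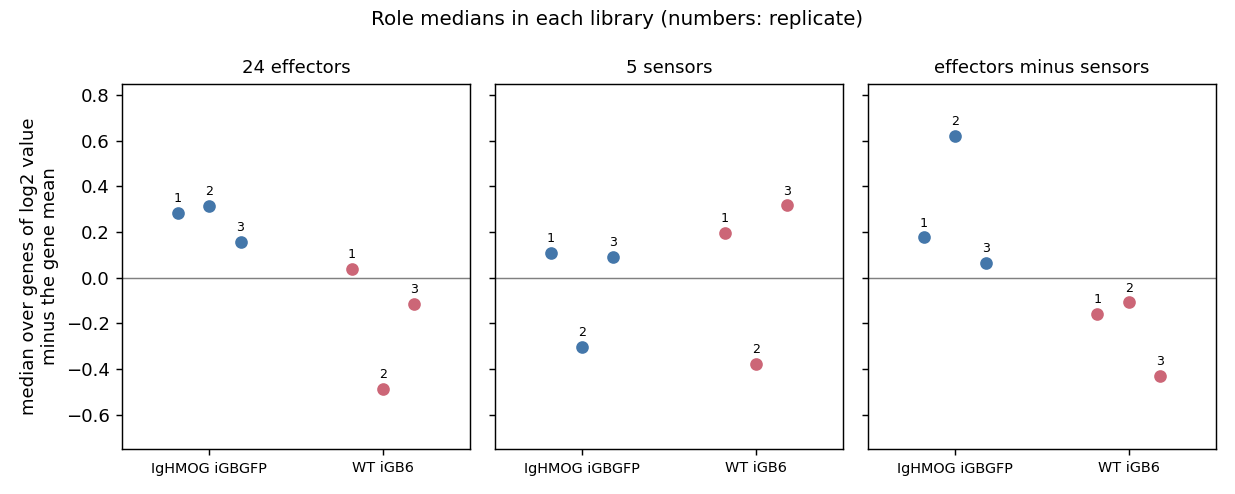
Median over genes of the log2(normalized count + 1) value minus the gene's mean, in each library (points numbered by replicate) for the effectors, the sensors and their difference. The effector minus sensor difference lies between 0.07 and 0.62 in IgHMOG iGBGFP and between -0.43 and -0.11 in WT iGB6.

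None of the 4 receptor and signalling members passed, and all 4 were fitted below 0 with overlapping groups (median -0.39). The receptor chain Ifnar1 was at 499, 454 and 827 normalized counts in IgHMOG iGBGFP and 336, 458 and 439.8 in WT iGB6. The highest library was an IgHMOG iGBGFP male, and the other 5 lay close together (log2 fold change -0.49, 95% interval -0.99 to 0.01, limma adjusted p = 0.211). Ifnar2 was at 176, 172 and 117 against 142, 107 and 109 (-0.36, interval -0.84 to 0.12). Stat2, the signalling factor of the receptor, was at 659, 538 and 1019.6 against 742, 389.9 and 521 (-0.42, interval -1.03 to 0.19). Usp18, which removes ISG15 from proteins and damps the receptor, was at 1225, 1129 and 969 against 1247, 483 and 1269 (-0.27, interval -0.95 to 0.41). For Usp18, 2 WT iGB6 libraries stood above all IgHMOG iGBGFP libraries and WT iGB6 replicate 2 stood far below them, and without that library the fitted difference was 0.17.

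Of the 11 modifiers and other members, 3 fell (Ifi27l2a, Phf11d and Trim30a), 0 rose, and the median log2 difference was -0.37. Ifi27l2a, a small mitochondrial or membrane protein among the most strongly interferon-induced, had the smallest p of the 44. It stood at 2089, 2222 and 1476 normalized counts in IgHMOG iGBGFP and at 941, 729 and 847 in WT iGB6. All WT iGB6 libraries lay far below the lowest IgHMOG iGBGFP library. The means were 1929 ± 398 and 839 ± 106 (SD over 3 mice in each group), with a log2 fold change of -1.19 (SE 0.19, limma adjusted p = 0.0124). Phf11d was at 85.9, 68.1 and 131 against 35.6, 28.4 and 47.2, without overlap (log2 fold change -1.31, SE 0.32, limma adjusted p = 0.0409). Trim30a, a TRIM protein that restrains inflammatory signalling, was at 856, 1113 and 1086 against 658, 607 and 659. The WT iGB6 libraries were close together and below all others, and the change was the smallest of those called (log2 fold change -0.66, SE 0.17, limma adjusted p = 0.048).

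The Trim30a promoter is shown as that of a called member outside the IFIT cluster, Trim30a, chr7:104465194-104465393 (minus strand), from RefSeq on GRCm38.p6, with its match to the reverse complement of the core in capitals.
Trim30a: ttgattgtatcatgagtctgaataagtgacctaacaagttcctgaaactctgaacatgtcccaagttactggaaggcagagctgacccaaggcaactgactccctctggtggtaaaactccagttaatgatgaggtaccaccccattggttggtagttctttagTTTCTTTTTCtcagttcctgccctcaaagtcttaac
The match starts 36 bases before this transcription start.

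None of the other 8 modifiers passed. Ifi44 had 26.6, 21.6 and 11.995 normalized counts against 4.74, 8.68 and 12.4, so that its fitted log2 difference of -1.15 came from few reads and missed the threshold (limma adjusted p = 0.178). Ifi35 was at 638, 618 and 629 against 781, 454 and 719 (log2 fold change 0.01, interval -0.45 to 0.47, and -0.19 under CPM). Parp9 was at 477, 486 and 669.7 against 547, 449.9 and 573 (-0.05, interval -0.49 to 0.39, and above 0 without IgHMOG iGBGFP replicate 3 or WT iGB6 replicate 2). Parp9 and its partner Dtx3l (-0.14) share 458 exonic bases on opposite strands, and their reads there cannot be told apart without strand. Parp14 (-0.54, 95% interval -0.99 to -0.09) and Trim25, which activates RIG-I (-0.37, interval -0.75 to 0.01), had groups that did not overlap, with WT iGB6 lower. Xaf1 (-0.20, and 0.20 without WT iGB6 replicate 2) and Herc6 (0.24) had overlapping groups.

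**Figure D4:**
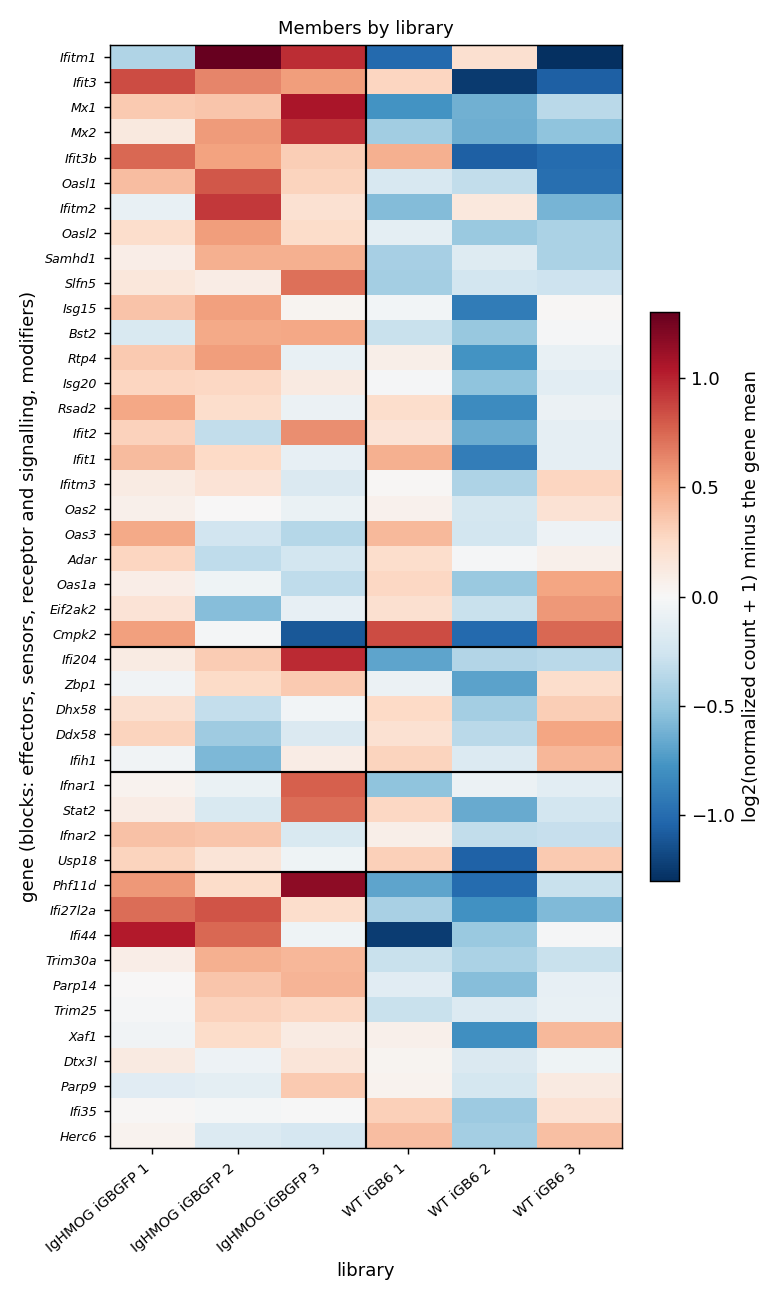
Log2(normalized count + 1) minus the gene mean for the 44 members (rows, in blocks by role) in the 6 libraries (columns), red above and blue below the mean. WT iGB6 replicate 2 is the lowest of the 6 libraries in 28 members.

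WT iGB6 replicate 2, a male, was the lowest of the 6 libraries in 28 of 44 members and the lowest WT iGB6 library in 34. Without it the members' median log2 difference was -0.31 and 9 members were called lower. In both sexes, taken separately, 28 members were lower in WT iGB6, among them all 8 called members, and 6 were higher. The share of all tested genes was not counted for this. The female difference rests on 1 mouse per group, and the 8 calls were made on these same libraries. Ifit3 differed by -0.57 in the female pair and by -1.74 in the males, and Ifit3b by -0.29 and -1.45. A limma model with a sex by group term called 0 members and 0 of all tested genes, with 2 members (Ifit3 and Ifit3b) and 1.49% of all genes at an unadjusted p under 0.05. Each group held 1 female, so that model has little to estimate the spread from. Ifitm1 had an interaction of -1.23 there (limma adjusted p = 0.99965). Without WT iGB6 replicate 2 the same model called 36 of all tested genes and 1 member, Ifitm1 (-2.004, limma adjusted p = 0.0147), but 3 of the 4 combinations of sex and group then hold 1 mouse and 1 residual degree of freedom is left.

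Around these members, 108 further genes of the pathway were looked up, of which 84 passed the filter. Of these, 11 fell, 1 rose and 72 did not pass, and their median log2 difference was -0.16. Interferon ligands were almost without reads: 17 of 20 ligand genes, Ifnb1 among them, had 0 reads in all 6 libraries, and a 0 allows up to 3 reads, or 2.37 to 3.56 normalized counts, in a library. Ifna2 had 1 read and Ifnk 3 reads over all libraries, and Ifng, the type II interferon, had 18 reads in IgHMOG iGBGFP and 24 in WT iGB6. The signalling genes Irf9 (-0.05, 95% interval -0.47 to 0.38), Jak1 (-0.14, interval -0.60 to 0.33) and Tyk2 (-0.28, interval -0.86 to 0.31) did not pass. Irf7, the factor that amplifies interferon production, was at 2267, 2178 and 2125 normalized counts against 1853, 1093 and 1494. Its groups did not overlap, and its log2 fold change of -0.60 missed the threshold (limma adjusted p = 0.0853).

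Of the 8 pathway genes with the smallest p among those called, 2 encode PYHIN proteins, the family of Ifi204. Ifi203 fell from 358 ± 168 to 135 ± 44.2 normalized counts (SD over 3 mice in each group, log2 fold change -1.35, limma adjusted p = 0.0124). Ifi205 fell from 178 ± 85.8 to 51.0 ± 5.23 (-1.67, limma adjusted p = 0.0173). Trim30d (-0.99) and Trim30b (-0.96), neighbours and relatives of Trim30a, also fell, as did Ly6e (-1.04), which shields cells from some viruses. The transcription factors Irf1 (-0.85) and Irf5 (-1.43) fell, and so did Socs3 (-1.44), an inhibitor of cytokine receptor signalling. In Ly6e, Irf1 and Irf5 the groups overlapped, while in Trim30d, Trim30b and Socs3 they did not. The 1 riser was Ikbke, a kinase that can activate IRF3, from 113 ± 15.3 to 236 ± 76.0 (log2 fold change 1.01, limma adjusted p = 0.0429, and not called under CPM). Without the sex term 0 of these pathway genes were called in either direction, and leaving out IgHMOG iGBGFP replicate 2 or replicate 3 also left 0, while without replicate 1 of either group 2 were lower and 0 higher. Without WT iGB6 replicate 2, 12 were lower and 3 higher, in a fit that called 1083 genes in all against 607.

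Grouped by family, a grouping made after the values were seen, the changes were uneven. Of 9 tested PYHIN genes 4 fell (Ifi203, Ifi204, Ifi205 and Aim2), and all 9 were fitted between -1.67 and -0.56. In the Trim30 group 3 of 4 fell, among the Ifit genes 2 of 6, among the Phf11 genes 1 of 4 and among the Mx genes 1 of 2. None of the 6 Oas genes passed, and their fitted differences ran from 0.01 to 0.75, with Oas1a, Oas2 and Oas3 below 0 under CPM. The 3 RIG-I-like receptors, from 0.09 to 0.36, the 7 Schlafen genes, the 4 Ifitm genes and the 5 Parp genes had 0 called as well. The PYHIN, Trim30 and Ifit genes lie in clusters of near copies, and reads could be split between neighbours.

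**Figure D5:**
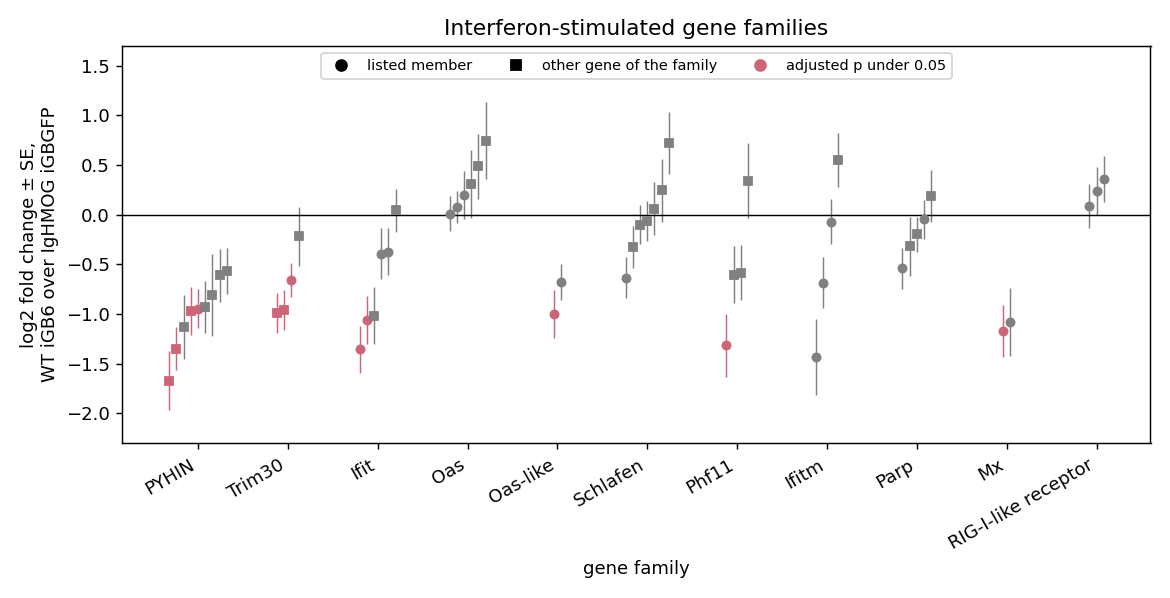
Log2 fold change ± SE, WT iGB6 over IgHMOG iGBGFP, for genes of interferon-stimulated families (circles for the listed members, squares for other genes of the family, coloured where past the test). All 9 PYHIN genes lie at or below -0.56, while the 6 Oas genes lie at 0.01 or above with the authors' scaling and Oas1a, Oas2 and Oas3 below 0 under CPM.

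The groups also differed in markers of the cells that the CD11b gate holds. Conventional dendritic cell markers summed to 0.00797 to 0.0339% of normalized counts in IgHMOG iGBGFP and to 0.00141 to 0.0065% in WT iGB6, and 5 of their 7 tested genes fell. Non-classical monocyte markers took 0.0263 to 0.0827% and 0.0147 to 0.0349%, with 4 of 6 lower, and basophil markers 0.0295 to 0.119% and 0.00571 to 0.0212%, with 3 of 5 lower. Classical monocyte markers took 1.17 to 1.60% and 1.97 to 2.34%, with 2 of 7 lower and 0 higher. That sum was 50.7 to 90.8% Chil3, and without Chil3 it was 0.266 to 0.682% and 0.189 to 0.393%, with 5 of the 7 genes fitted below 0. Neutrophil precursor markers took 0.036 to 0.0693% and 0.130 to 0.350%, with 6 of 6 higher. Neutrophil markers took 11.6 to 23.7% and 19.0 to 26.5%, with overlapping groups. Of these 10 genes 1 was called lower (Cxcr2), 0 were called higher and 7 were fitted above 0. Markers of plasmacytoid dendritic cells, the strongest makers of type I interferon, summed to 0.00231 to 0.00625% and 0.0019 to 0.00419%. Only 1 of these 6 markers passed the filter, Tcf4, with 106 to 310 reads in a library. Siglech had 0 to 11 reads in a library, and Pacsin1 and Klk1 had 0 reads in 5 libraries each. The part of these cell types in the interferon gene differences was not tested.

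Promoter windows of 300 bases, from 250 before to 50 after a RefSeq transcription start, were found for 33 of the 44 members. The members without a window were Ifi204, Usp18, Ifi27l2a, Zbp1, Parp9, Rtp4, Mx2, Parp14, Oas2, Dhx58 and Mx1. On either strand, and with overlapping matches allowed, the response element core (GAAA, any 2 bases, GAAA) occurred in 16 of the 33 members (48.5%) and in 3.99% of 27025 genes with a window. The longer form with CT after the second GAAA, which contains the core, occurred in 8 members (24.2%) and in 0.303% of genes. TTCNNNGAA, the gamma-activated site, which reads the same on both strands, occurred in 11 members (33.3%) and in 9.55% of genes. The core was present in 3 of the 5 called members with a window, the Ifit3, Ifit3b and Trim30a promoters printed above, and in 13 of the 28 that were not called. Both RIG-I-like receptor genes with a window, Ddx58 and Ifih1, held a match just after their start.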

How the data were processed

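Total RNA of CD11b+ spleen cells from 6 mice was made into libraries with a low-input kit and 17 cycles of cDNA amplification, per the labels' protocols, with no molecular identifiers described, so floors cover counting error only. Nothing in the labels describes the kit as strand-keeping. Per the submitters' processing notes, the tools included STAR 2.7.10b, DESeq2 2.11.40.7, featureCounts 2.0.3, FastQC 0.74 and cutadapt 4.4, with the builds GRCm38 and mm10, without roles. Annotation, strand setting and handling of multi-mapping reads were not given in the sources used here. Deposited signal values are gene counts that the authors divided by 1 size factor per library, and dividing by that step gave whole reads for 100% of values within 0.001. The authors' deposited comparison table, which has no header, holds log2 fold changes, a Wald score and p-values.

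Symbols, coordinates and gene types came from GENCODE M21 on GRCm38 and matched all 44 members. Differences were tested with limma 3.58.1 under R 4.3.3 (eBayes with trend) on log2(normalized count + 1) with group and sex as terms, for 9923 genes with a mean of at least 10, two-sided, with Benjamini-Hochberg adjustment at 0.05. Fold changes on this scale understate low genes. Because the deposited signal is normalized, count tests were alternatives: edgeR 4.0.16 called 606 genes and DESeq2 1.42.0 called 951, against 607 by limma. The p-values set each difference against the spread between these mice. In limma the spread of each gene is drawn toward that of genes at a similar level. The script was tested on simulated data.

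The members, their roles and the pathway lists were chosen with earlier results of these data known. Values in every library are given for called members, receptor and signalling members, sensors, uncalled members that differed by at least 1 on the log2 scale and the 3 nearest to 0. Of the pathway genes, Irf9, Irf7, Jak1, Tyk2, Ifnb1 and the 8 called genes with the smallest p are named, and 1 further gene of this rule is not reported here. Other genes, such as Oasl2, Samhd1, Isg15, Ifit1, Ikbke and Aim2, were singled out after their values were seen. The alternatives were other pseudocounts, filters, scalings and count tests, the replicate block, no sex term, and each library left out.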

Additional observations from a re-analysis of the deposited data

How the results depend on the processing

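The 8 lower members were called by edgeR, under both other pseudocounts, under the stricter filter and under TMM scaling, and no member was called higher in any setting run. The count of lower members was 0 without the sex term and ran from 0 to 9 with 1 library left out. Lower pathway genes were 0 without the sex term and 0 to 12 with a library left out, and higher ones were 0 without the sex term, 0 under CPM and 0 to 3 with a library left out. The interaction of sex and group called 0 to 1 members with a library left out. The members' median ran from -0.54 to -0.31, and the effector minus sensor median from -0.77 to -0.45, with a library left out. Scaling to CPM moved the median of all genes to -0.18 and that of the members to -0.63, and made 80.9% of all calls lower, against 55.0% as reported. Without a library the adjusted p of the 8 members reached 0.214 at most. The cause was not tested.

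With the replicate block in place of sex, 12 members were lower, adding Ifitm1, Samhd1, Oasl2 and Ifitm2, and lower genes over the whole table went from 334 to 566. The numbers did not pair the mice throughout: deviations of same-numbered libraries correlated at 0.48, 0.35 and 0.04, and replicate 3 of WT iGB6 was closer to number 1 (0.08).

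Differences near 0 changed sign in 12 members, none of them called. Under CPM, Adar was -0.020, Dhx58 -0.12, Ifi35 -0.19, Oas1a -0.0074, Oas2 -0.19 and Oas3 -0.13. Under TMM scaling Ifi35 was -0.015 and Oas2 -0.016, and by edgeR Oas2 was -0.0073. With a library left out the ranges were -0.12 to 0.89 for Cmpk2, -0.052 to 0.44 for Ddx58, -0.13 to 0.30 for Dhx58, -0.14 to 0.24 for Ifi35, -0.27 to 0.12 for Ifitm3, -0.085 to 0.48 for Oas1a, -0.11 to 0.13 for Oas2, -0.17 to 0.12 for Parp9, -0.62 to 0.17 for Usp18 and -0.50 to 0.20 for Xaf1. With 5196339 reads in the shallowest library, Ifi44 and Mx2 rest on few reads.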

Other observations

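Ratios of related members within a library do not depend on its scaling, and those given here were picked after the values were seen and were not tested. Ifit3 over Ifit1 ran from 0.796 to 0.962 in IgHMOG iGBGFP and from 0.316 to 0.538 in WT iGB6. Ifit3b over Ifit1 ran from 0.426 to 0.480 and from 0.192 to 0.356. Oasl1 over Oas1a, an OAS-like gene over an Oas gene, ran from 0.606 to 0.889 and from 0.173 to 0.545. In these 3 pairs the groups did not overlap.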
